A study of Mus musculus with 6 samples.

Results

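The EGF receptor family was described here through 10 genes, matched by symbol among the 53379 annotated genes of the count table. They are the receptors Egfr, Erbb2 and Erbb3, the ligands Areg, Ereg, Hbegf, Tgfa, Btc and Epgn, and the receptor inhibitor Errfi1. All 10 were found, and 9 of them passed the filter on low counts that left 14537 genes for testing. Epgn did not pass it.

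The RNA came from epithelial organoids grown from pancreatic tumours of KPC mice, in a gel dome with a complete organoid medium whose composition is not given in the sources used here. Each mouse, of the C57/Bl6 strain, carried Trp53LSLR172H and Pdx1-Cre, so that Cre made under a pancreatic promoter switches on the mutant allele. All 6 libraries share this background, and each of 3 organoid lines, numbered 6, 23 and 34, gave 2 of them. The heterozygous libraries (n = 3) have the genotype Trp53LSLR172H/+, and the LOH libraries (loss of heterozygosity, n = 3) have Trp53LSLR172H/-. The descriptions of the LOH libraries also end in "Nut", which no label explains, so that its meaning and the genotype cannot be told apart. No age is given.

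Receptors of this family are kinases that span the cell surface and signal in pairs. Ligands are made as membrane-bound precursors, are cut free by ADAM proteases and bind the receptor on the same or a nearby cell, after which the receptor pair recruits adaptors that activate RAS and ERK and, through ERBB3 above all, PI3K and AKT. Errfi1 (also called Mig6) is switched on by this signalling and binds the kinase domain of the receptor to shut it off. In mice, EGF receptor signalling is needed for early pancreatic neoplasia to form.

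Libraries held 13680458 to 27917277 expected counts, and 3 counts were worth 0.1 to 0.223 CPM (counts scaled to the library size after TMM). For lines 6, 23 and 34 in turn, Trp53 itself stood at 77.3, 76.3 and 86.5 CPM with both alleles and at 73.5, 52.5 and 47.4 CPM after LOH, with an edgeR adjusted p of 0.227. A gene count adds up mutant and wild-type transcripts of Trp53. Of 3 p53 targets chosen with their values known, Ccng1 fell in the LOH libraries, from 331, 249 and 312 CPM to 38.4, 53.8 and 106 CPM (edgeR adjusted p = 0.0314, and 0.0573 with the line as a block). Mdm2 fell too (log2 -1.26, edgeR adjusted p = 0.0284, and 0.0905 with the block), and Cdkn1a did not pass, with 27.5, 24.9 and 22 CPM and then 8.03, 21.7 and 19 CPM (log2 -0.61, edgeR adjusted p = 0.339). All 8 epithelial markers were tested and their summed level was 5337 to 6181 CPM in the heterozygous and 5255 to 11535 CPM in the LOH libraries, and none passed. The 10 leukocyte markers summed to 1.93 to 2.37 and 3.27 to 14.9 CPM, most of it Cd68, with Cd3g, Adgre1 and Lyz2 among those at 0 in every library. The 5 endothelial markers summed to 0.0334 to 0.1 and 0.372 to 2.62 CPM (Emcn at 0), and the 6 acinar markers to 0.567 to 0.806 and 0.868 to 2.39 CPM (Prss1, Pnlip and Ptf1a at 0). Fibroblast markers stayed at or below 4.61 CPM in sum and islet markers at or below 0.175 CPM. The share of counts on genes of the protein-coding table was 67.9% to 73.3% in the heterozygous and 61.4% to 67.2% in the LOH libraries. The leukocyte, endothelial and acinar sums and this share did not overlap between the groups, and their part in the results below was not tested.

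The start regions below belong to members that are compared further on. Areg and Btc are neighbours on chromosome 5 whose fitted log2 fold changes differ in sign, though Areg did not pass (edgeR adjusted p = 0.283). Errfi1 has a pair of start sites whose transcripts held different shares in the groups, and its transcript Errfi1-202 did not pass either (edgeR adjusted p = 0.091). Each start region is the stretch of 250 bases before a start site given by RefSeq on GRCm38.p6, on the strand of the gene. Areg lies at chr5:91139349-91139598 on the plus strand and Btc at chr5:91402995-91403244 on the minus strand. The Errfi1 regions, both on the plus strand, are chr4:150854820-150855069 for the downstream start and chr4:150853546-150853795 for the upstream start. Capitals mark the letters of a cyclic AMP response element (CRE, TGACGTCA) and of a TATA box (TATAAA).
Areg: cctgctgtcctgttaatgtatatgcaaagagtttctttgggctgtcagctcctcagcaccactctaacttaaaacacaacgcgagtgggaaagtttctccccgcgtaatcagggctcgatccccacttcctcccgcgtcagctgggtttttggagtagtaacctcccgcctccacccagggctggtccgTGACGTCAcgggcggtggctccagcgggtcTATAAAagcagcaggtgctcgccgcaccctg
Btc: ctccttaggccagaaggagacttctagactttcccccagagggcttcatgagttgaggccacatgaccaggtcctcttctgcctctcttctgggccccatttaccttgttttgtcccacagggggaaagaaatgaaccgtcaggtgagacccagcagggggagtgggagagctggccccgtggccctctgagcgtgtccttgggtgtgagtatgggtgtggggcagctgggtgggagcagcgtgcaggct
Errfi1 downstream start: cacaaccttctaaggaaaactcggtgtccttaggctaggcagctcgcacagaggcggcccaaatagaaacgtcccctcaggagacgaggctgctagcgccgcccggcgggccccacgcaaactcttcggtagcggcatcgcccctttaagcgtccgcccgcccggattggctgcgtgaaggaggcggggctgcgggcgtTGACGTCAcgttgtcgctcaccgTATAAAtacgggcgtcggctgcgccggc
Errfi1 upstream start: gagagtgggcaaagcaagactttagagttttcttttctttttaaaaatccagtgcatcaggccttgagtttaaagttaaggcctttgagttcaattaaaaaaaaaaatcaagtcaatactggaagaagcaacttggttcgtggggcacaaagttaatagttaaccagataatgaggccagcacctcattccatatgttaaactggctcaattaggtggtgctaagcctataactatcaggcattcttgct

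The Areg region and the downstream Errfi1 region both held a CRE and a TATA match, in the same order and at like distances. In Areg the matches began 61 and 31 bases before the start, and in Errfi1 51 and 28 bases before it. The Btc region and the upstream Errfi1 region held neither. A CRE match, on either strand, stood in 1.55% of 32851 mouse windows of this length, and a TATA match on the sense strand in 7.59%. Windows of 7 of the 10 members were searched (8 windows, since Errfi1 has 2). Any window on chromosome 18, where Hbegf lies, was left out of this search, so Hbegf was not searched. Among the 8 windows the only other match to either was a TATA match 86 bases before the start of Epgn. Another 4 motifs were searched on both strands, AP-1 (TGANTCA), the E-box CACGTG, the CArG box and the p53 half-site, and none of the 8 windows held one. These stood in 6.75%, 6.02%, 1.47% and 7.13% of all windows. TATA letters can form the middle of a CArG box, and CRE and AP-1 share their outer letters. GC content was 57.2% before Areg, 59.6% before Btc, 64.8% before the downstream and 38% before the upstream Errfi1 start. A match is a run of letters and not evidence of binding, and no binding was measured here.

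Among the 3 receptors, Erbb2 and Erbb3 had more transcript in the LOH library of every line and Egfr did not, but none of them passed the test. Fewer cells with a transcript and less of it per cell cannot be told apart in these bulk libraries. The comparison asks which transcripts differ once the wild-type Trp53 allele is lost. It was made with edgeR's two-sided quasi-likelihood test, with Benjamini-Hochberg adjustment over all 14537 genes, and 5.21% of all genes tested passed an adjusted p of 0.05, 3.55% higher and 1.66% lower in LOH. Of the 9 members tested, 1 passed, the ligand Btc, higher in LOH. With the line as a block, which compares the libraries within each line, 1.47% of all genes and none of the members passed. In that fit 3 of the 9 members and 20.0% of all genes had an unadjusted p under 0.05. Without a block 25.3% of all genes had one. DESeq2 called 3 members and 8.37% of the 27027 genes with any count. That is a wider set than the 14537 genes of the edgeR fit, so the shares of the tools are not over the same genes.

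Erbb2 (ENSMUSG00000062312.5; chromosome 11, 98412470 to 98437716, plus strand, GRCm38) encodes a receptor with no known ligand that is the preferred partner of the others. Lines 6, 23 and 34 had 69.7, 72.2 and 58.4 CPM while heterozygous and 146, 141 and 92 CPM after LOH. Every LOH library lay above every heterozygous one. The log2 fold change of LOH over heterozygous was 0.92 (SE 0.23, 95% interval 0.38 to 1.46), and the edgeR adjusted p of 0.0661 missed the threshold. By line the log2 ratios were 1.06, 0.97 and 0.66. The call turned on the tool and on 1 library, since DESeq2 gave an adjusted p of 0.0145 and edgeR without LOH line 34 gave 0.0328, in a range of 0.0145 to 0.307 over 19 alternatives. Only the last bases of Erbb2, from 98437708 to 98437716, overlap Mien1, a gene on the other strand. The log2 fold change of Mien1 was 0.87 (edgeR adjusted p = 0.0785). The strand setting of the counting is not given in the sources used here.

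Erbb3 (ENSMUSG00000018166.8; chromosome 10, 128567523 to 128589652, minus strand) encodes a neuregulin receptor with a weak kinase that docks PI3K. In that order of lines, its heterozygous values were 108, 144 and 104 CPM and its LOH values 152, 302 and 243 CPM. Again the groups did not overlap, with LOH line 6 closest to the heterozygous libraries. Its log2 fold change was 0.97 (SE 0.29, 95% interval 0.29 to 1.64) with an edgeR adjusted p of 0.0952. Without LOH line 6 the edgeR adjusted p was 0.0242 and with DESeq2 it was 0.0343, in a range of 0.0242 to 0.42 over 19 alternatives.

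Egfr (ENSMUSG00000020122.16; chromosome 11, 16752203 to 16918158, plus strand) encodes the receptor that all 6 ligands bind. Heterozygous values were 64.7, 37.5 and 38.3 CPM and LOH values 26, 47 and 56.3 CPM. Both the highest and the lowest value came from line 6, where the log2 ratio of LOH over heterozygous was -1.31, against 0.32 in line 23 and 0.56 in line 34. The fitted log2 fold change was -0.12 (SE 0.35) with an edgeR adjusted p of 0.855, and its 95% interval of -0.94 to 0.71 does not show that the groups were alike. Egfros, a gene on the other strand within Egfr, had 6 to 20 counts per library. The sign of the Egfr value rested on line 6, without whose libraries the log2 fold change was 0.42 (edgeR adjusted p = 0.186).

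Egfr has a long transcript for the full receptor (Egfr-201, 1210 codons) and a short one that ends early (Egfr-202, 655 codons). Egfr-202 held 28.2%, 33.2% and 40.7% of the gene's estimated abundance in heterozygous organoids and 34.9%, 26.7% and 36.5% after LOH. These ranges overlapped, and the fitted log2 fold changes were -0.1 for the long and -0.07 for the short transcript (edgeR adjusted p = 0.94 and 0.964). For Erbb2, the noncoding transcript Erbb2-202 held 33.2% to 39.8% in the heterozygous and 33.8% to 38.9% in the LOH libraries.

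Levels of different genes were compared in TPM, which corrects for transcript length. Summed over the 3 receptors, the heterozygous libraries had 57.2, 48.1 and 40.7 TPM and the LOH libraries 60.8, 76.8 and 57.2 TPM. TPM levels shifted between the groups, as given below, so these sums do not measure a change in receptor transcripts. Egfr made up 24.8%, 13.6% and 17.7% of these sums and then 8.75%, 7.1% and 14.3%. Its share was smaller in the LOH library of each line, yet 14.3% in LOH line 34 lay above 13.6% in heterozygous line 23. An exact two-sided permutation test of the share gave p = 0.2 (n = 3 and 3), where 0.1 is the smallest value such a design allows. The exact permutation p was 0.7 for the share of Erbb2 and 0.6 for that of Erbb3.

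**Figure D1:**
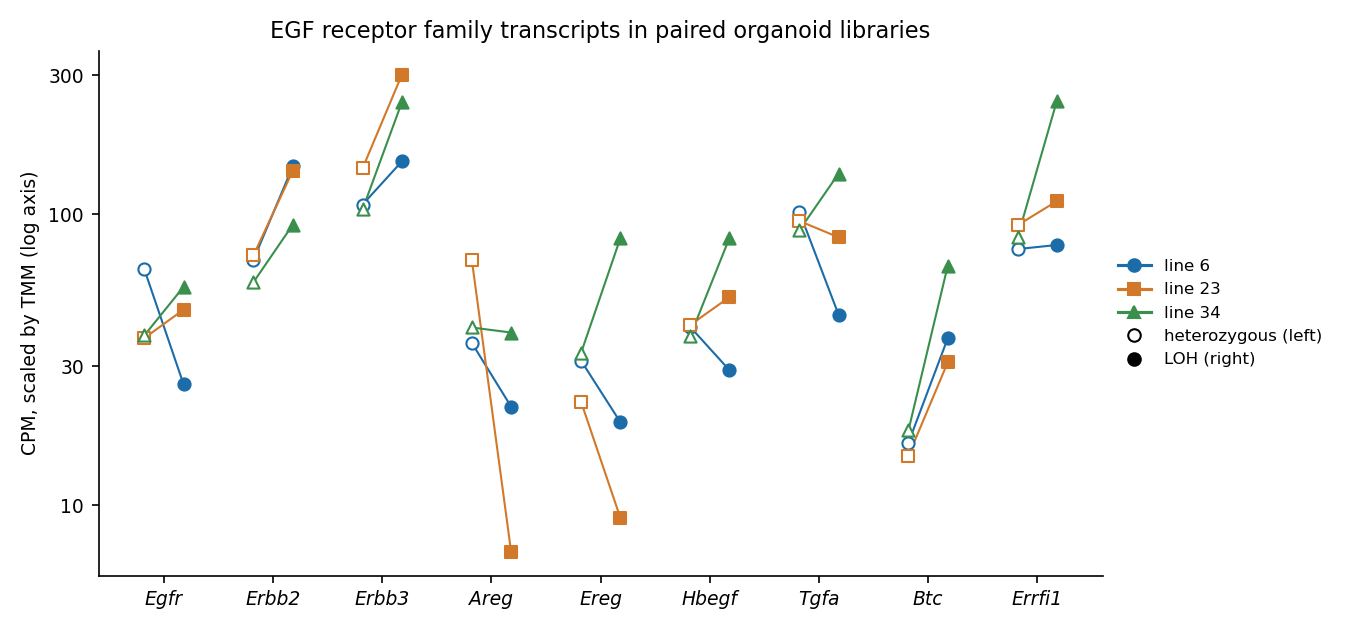
CPM on a log axis for the 9 members tested, with 1 open (heterozygous, left) and 1 filled (LOH, right) point per organoid line, joined within the line. Btc, Erbb2 and Erbb3 have every LOH point above every heterozygous point, while line 6 and line 34 go opposite ways for Egfr, Ereg, Hbegf and Tgfa.

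Btc rose in the LOH libraries, by 2.74-fold, and was the only one of the 5 tested ligands to pass. Areg was lower in the LOH library of every line without passing, and Ereg, Hbegf and Tgfa went one way in some lines and the other way in the rest. Btc (ENSMUSG00000082361.6; chromosome 5, 91357261 to 91402994, minus strand) encodes betacellulin, a ligand of EGFR and of ERBB4. Lines 6, 23 and 34 had 16.4, 14.8 and 18.1 CPM while heterozygous and 37.5, 31 and 66.6 CPM after LOH. The lowest LOH value was well above the highest heterozygous one, and LOH line 34 was the highest. The means were 16.4 ± 1.61 and 45 ± 19 CPM (SD, n = 3 each). On the log2 scale the difference was 1.45 (SE 0.31, 95% interval 0.72 to 2.19) with an edgeR adjusted p of 0.0469, close to the threshold. The log2 ratio was above 0 in 3 of 3 lines, at 1.19, 1.06 and 1.88.

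The call for Btc was lost with the line as a block (log2 1.38, edgeR adjusted p = 0.0862) and on the scale of log2(TPM + 1) (limma, log2 0.88, adjusted p = 0.0669). It was also lost without any 1 of the heterozygous libraries of lines 6, 23 and 34 (edgeR adjusted p = 0.174, 0.181 and 0.195), where edgeR called 0 genes of the whole table and 2966, 2637 and 2272 had an unadjusted p under 0.05. Leaving out both libraries of 1 line gave edgeR adjusted p-values of 0.193 (line 23), 0.184 (line 34) and 0.0805 (line 6).

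Areg (ENSMUSG00000029378.5; chromosome 5, 91139599 to 91148432, plus strand) encodes amphiregulin, a ligand of EGFR alone. It had 36.1, 69.7 and 40.8 CPM in the heterozygous and 21.8, 6.91 and 39.2 CPM in the LOH libraries. Line 23 held both the highest and the lowest value, and LOH line 34 lay above heterozygous line 6, so that the groups overlapped. The log2 ratios by line were -0.73, -3.32 and -0.06. The log2 fold change of -1.11 (SE 0.59, 95% interval -2.49 to 0.27) had an edgeR adjusted p of 0.283. Without both libraries of line 23 it was -0.34 (edgeR adjusted p = 0.716), and on the scale of log2(TPM + 1) it was -1.67 (limma adjusted p = 0.0684).

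Ereg (ENSMUSG00000029377.5; chromosome 5, 91074622 to 91093646, plus strand) encodes epiregulin, which binds EGFR and ERBB4. It had 31.4, 22.7 and 33.3 CPM in the heterozygous and 19.3, 9.06 and 82.6 CPM in the LOH libraries. LOH line 34 was far above all others, and the other LOH libraries were below every heterozygous one. The fitted log2 difference was 0.34 (SE 0.73, with an edgeR adjusted p of 0.794), and it was -1.05 without LOH line 34 (edgeR adjusted p = 0.16) and -0.26 with the line as a block.

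Tgfa (ENSMUSG00000029999.14; chromosome 6, 86195223 to 86275719, plus strand) encodes transforming growth factor alpha, a ligand of EGFR that is raised in many pancreatic tumours. It had 102, 94.8 and 88 CPM in the heterozygous libraries, against 45.1, 83.3 and 138 CPM after LOH. The heterozygous libraries lay close together and the LOH libraries spread to both sides of them. Its fitted log2 difference was -0.09 (SE 0.38, 95% interval -0.98 to 0.79, edgeR adjusted p = 0.898).

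Hbegf (ENSMUSG00000024486.5; chromosome 18, 36504927 to 36515805, minus strand) encodes heparin-binding EGF-like growth factor, which binds EGFR and ERBB4. It had 41, 41.6 and 38.1 CPM in the heterozygous and 29.1, 51.9 and 82.9 CPM in the LOH libraries. As for Tgfa, LOH line 6 was the lowest and LOH line 34 the highest of all 6 libraries. Its fitted log2 difference was 0.44 (SE 0.36, 95% interval -0.4 to 1.29, edgeR adjusted p = 0.471).

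Epgn (ENSMUSG00000035020.11; chromosome 5, 91027464 to 91035215, plus strand) encodes epigen, a weak ligand of EGFR. It had 2, 0 and 5 counts in the heterozygous and 1, 1 and 5 counts in the LOH libraries, too few for a test or a fold change. In heterozygous line 23, 0 counts allow up to 0.223 CPM.

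In the make-up of the ligand transcripts, the shares of Areg, Btc and Hbegf did not overlap between the groups, and those of Tgfa, Ereg and Epgn did. How often shares part in this way was not worked out, and in CPM 32.8% of all genes had such a gap. Areg held 37.6%, 56.1% and 42.1% of the summed ligand TPM in the heterozygous and 32.8%, 10.4% and 24.4% in the LOH libraries, or 45.3% ± 9.61 and 22.5% ± 11.3 (SD, n = 3 each). Btc held 6.84%, 4.63% and 7.27% and then 21.9%, 18% and 16.2%, or 6.25% ± 1.42 and 18.7% ± 2.94. Neither share overlapped between the groups, and an exact two-sided permutation test gave p = 0.1 for each, the smallest value that 3 against 3 libraries allow. Any gap between the groups gives this value, so the test adds nothing to the lack of overlap. Hbegf held 15.9% to 20.5% in the heterozygous and 20.9% to 37.3% in the LOH libraries, a narrow gap. Its CPM ranges overlapped, at 38.1 to 41.6 CPM in the heterozygous and 29.1 to 82.9 CPM in the LOH libraries. These shares add up to the whole, so that they are not independent of each other. The summed ligand TPM was 116, 122 and 98.9 in the heterozygous and 59.2, 54 and 119 in the LOH libraries, so the sum in LOH line 34 was not low. The median gene had a lower TPM in LOH, as given below, so these sums do not measure a change in ligand transcripts between the groups. In CPM, LOH line 34 was the highest library for Ereg, Hbegf, Tgfa and Btc, and heterozygous line 23 for Areg.

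**Figure D2:**
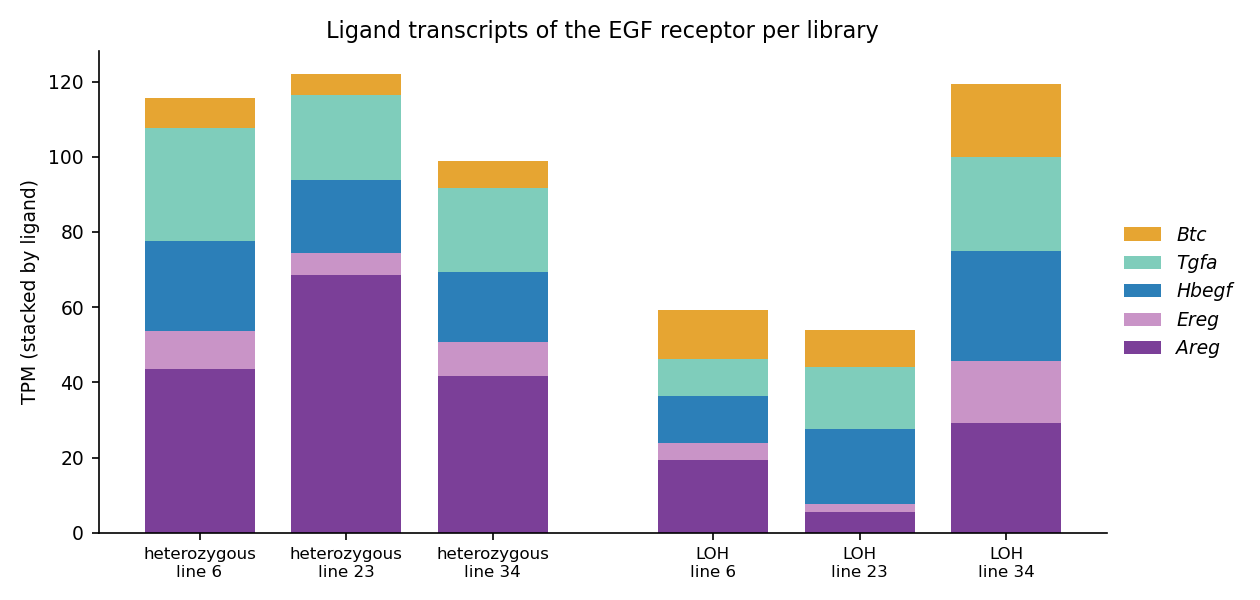
TPM of the 5 tested ligands, stacked from 0, in each of the 6 libraries. Areg is the largest block in every heterozygous library, and LOH lines 6 and 23 have the shortest bars, at 59.2 and 54 TPM against 98.9 to 122 TPM elsewhere. The median gene had a lower TPM in LOH, so bar heights do not measure a change between the groups.

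The median gene had a lower TPM in LOH. Over the 11918 genes that reach 1 TPM in at least 3 libraries, the median log2 difference was -0.35 on the log2(TPM + 1) scale. It was -0.42 on the log2(TPM + 0.1) scale, against 0.06 over the 14537 genes of the edgeR fit. TPM levels thus serve here to order genes within a group. In the heterozygous libraries Areg had the highest mean, 51.2 ± 15 TPM (SD, n = 3), followed by Errfi1 at 34.4 ± 1.47, Tgfa at 25 ± 4.53, Erbb3 at 22.8 ± 3.12 and Hbegf at 20.6 ± 2.74 TPM. Erbb2 at 16.6 ± 2.6, Egfr at 9.31 ± 4.26, Ereg at 8.4 ± 2.21 and Btc at 6.92 ± 1.15 TPM came after them, and Epgn was last. Neighbours in this order overlapped in range, except Areg with Errfi1, Errfi1 with Tgfa, and Btc with Epgn. In the LOH libraries the order was Errfi1 at 43.8 ± 24.1, Erbb3 at 33.8 ± 9.97, Erbb2 at 24.9 ± 7.51, Hbegf at 20.7 ± 8.55, Areg at 18.1 ± 11.8, Tgfa at 17.1 ± 7.61, Btc at 14 ± 4.89, Ereg at 7.64 ± 7.68 and Egfr at 6.32 ± 1.61 TPM, with Epgn last. There only Egfr with Epgn did not overlap. Btc thus stood below Egfr and Ereg in the heterozygous order, with ranges that overlapped, and above both in the LOH order. Its LOH range of 9.71 to 19.32 TPM lay above that of Egfr, 5.32 to 8.17 TPM, and overlapped that of Ereg.

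Epgn, Ereg, Areg and Btc lie side by side within 375.5 kb of chromosome 5, and no other protein-coding gene lies between them among the 7 annotated genes of the span. Ereg starts 47.2 kb and Areg 112.1 kb after the start of Epgn, all 3 on the plus strand, and Btc ends 375.5 kb after it, on the minus strand. In lines 6 and 23 Ereg and Areg were both lower in LOH while Btc was higher. In line 34 Btc and Ereg were higher, with log2 ratios of 1.88 and 1.31, and Areg was nearly level at -0.06. Mthfd2l, the gene before Epgn, had a log2 fold change of 0.1 (edgeR adjusted p = 0.826). The noncoding Gm19610, which overlaps the start of Ereg on the other strand, had 0 to 6 counts in every library.

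**Figure D3:**
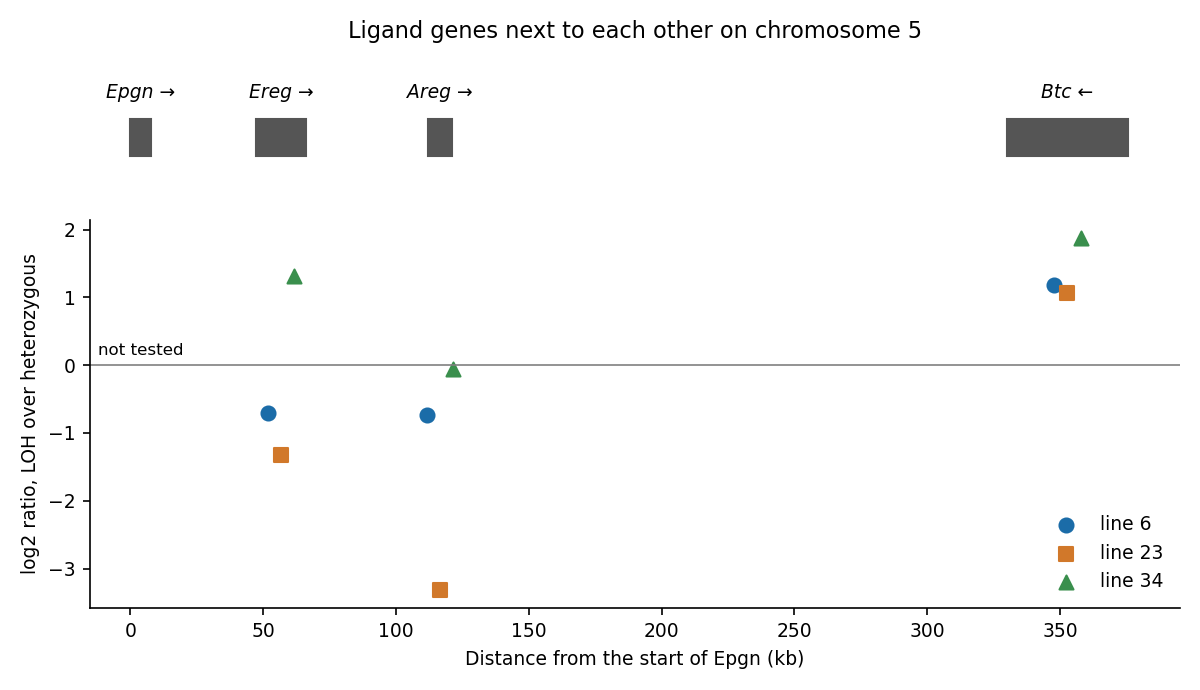
Positions of the 4 ligand genes in kb from the start of Epgn, with arrows for their strand, above the log2 ratio of LOH over heterozygous for each organoid line at that gene. Btc is above 0 in all lines, Areg is below 0 in all lines with line 23 at -3.32, and Ereg divides, with line 34 at 1.31.

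Errfi1 (ENSMUSG00000028967.10; chromosome 4, 150853919 to 150868892, plus strand), the inhibitor, had 75.9, 91.7 and 83.6 CPM in the heterozygous libraries, against 78.4, 111 and 246 CPM after LOH. The LOH library of line 34 stood apart, and that of line 6 lay within the heterozygous range. Its fitted log2 difference was 0.79 (SE 0.41, 95% interval -0.17 to 1.76, edgeR adjusted p = 0.274), and it was 0.17 without LOH line 34.

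Within Errfi1, the share of the transcript from the upstream start was larger in LOH in every line. Errfi1-201 begins with an exon at 150855073 to 150855271, and Errfi1-202 with one at 150853919 to 150854105, 1154 bases further upstream. Both have the same coding exons, for 461 codons, and differ in the first exon, outside the coding sequence. Errfi1-202 held 4.52%, 5.14% and 7.36% of the gene's estimated abundance in heterozygous lines 6, 23 and 34 and 20.9%, 40.7% and 22.4% after LOH. The lowest LOH share was above the highest heterozygous share, and the exact two-sided permutation test gave p = 0.1, the smallest it allows with n = 3 each. Such a gap always gives this value, so the test adds nothing to it. How often the shares of other transcripts part in this way was not worked out. Errfi1-201 held 88.8%, 90.2% and 87.4% and then 78.4%, 54.2% and 71.3%.

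In estimated counts, Errfi1-202 had 109, 66 and 193 in the heterozygous and 283, 1245 and 1248 in the LOH libraries. Line 6 thus held the fewest of the LOH counts and still more than any heterozygous library. A fit of all 36699 transcripts that passed the filter, added after these values had been seen, gave a log2 fold change of 3.04 (SE 0.51) with an edgeR adjusted p of 0.091, which did not pass. In that fit 0.0272% of all transcripts passed, and 5056 of the 36699 had an unadjusted p under 0.05. The log2 fold change of Errfi1-202 was 2.9 with the line as a block (edgeR adjusted p = 0.362). It stayed between 2.67 and 3.38 with each library left out. Over 10 alternatives its edgeR adjusted p-values ran from 0.0764 to 0.426. For Errfi1-201 the log2 fold change was 0.42 (edgeR adjusted p = 0.738).

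The transcripts differ in the first exon and in where the last one ends (150868887 and 150868892), and the authors' program divided the reads between them by estimation. A gene on the other strand, 1700045H11Rik, overlaps the upstream first exon and had 0 counts in 5 libraries and 1 in LOH line 34. The RefSeq start of the upstream form, behind the region printed above, is at 150853796, before the annotated first exon of Errfi1-202, while the downstream starts are 3 bases apart. The CRE and TATA letters stand before the downstream start and not in the window before the RefSeq upstream start. The bases from 150853796 to the first exon of Errfi1-202, which begins at 150853919, were not searched. Whether either motif stands directly before that exon is therefore not known here. The share of Errfi1-201 was smaller in LOH, while its fitted log2 fold change was 0.42 (edgeR adjusted p = 0.738). Whether the letters bear on the shares was not tested.

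**Figure D4:**
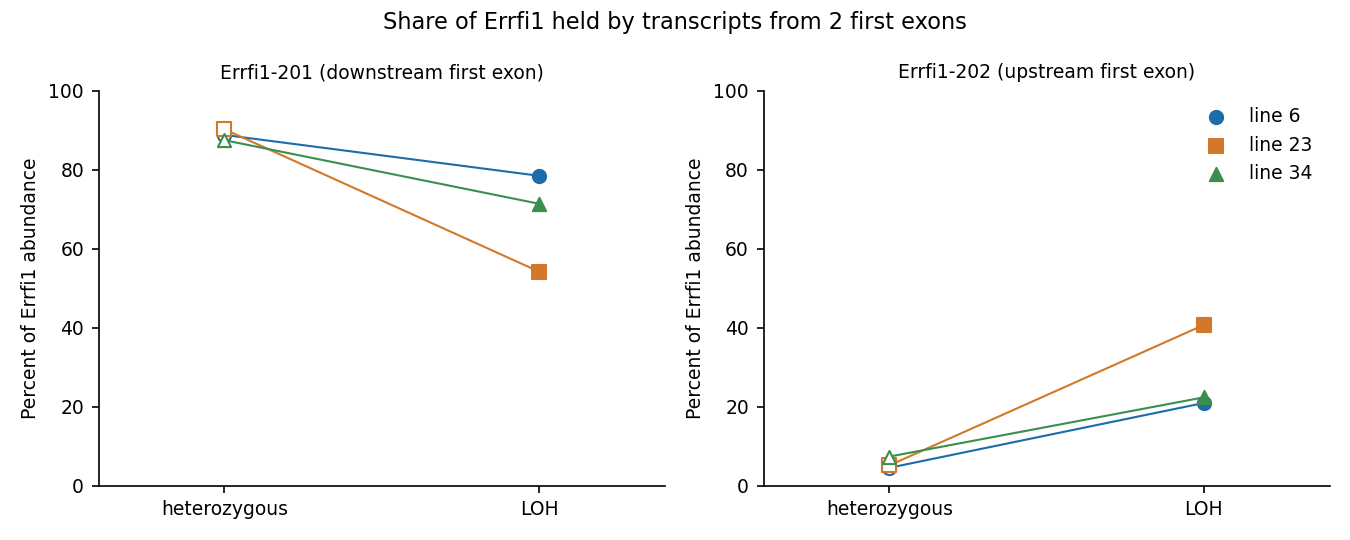
Percent of the estimated Errfi1 abundance held by Errfi1-201 (left panel) and Errfi1-202 (right panel), with 1 open heterozygous and 1 filled LOH point per organoid line, joined within the line. Errfi1-202 lies at 4.52% to 7.36% in the heterozygous and 20.9% to 40.7% in the LOH libraries.

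The 9 tested members had a median log2 fold change of 0.44, against 0.06 for all genes, and 6 of them were above 0. The members' median moved with single libraries, to 0.01 without LOH line 34, 0.7 without LOH line 6 and 0.73 without LOH line 23. Without both libraries of line 34 it was -0.03 and without both of line 6 it was 0.73. On the log2(TPM + 1) scale it was -0.07, where that of the 11918 genes on this scale was -0.35. The CPM ranges of the groups did not overlap for 3 of the 9 members, Btc, Erbb2 and Erbb3, all higher in LOH. Of all genes, 32.8% had such a gap in either direction, and 16.4% had one with LOH higher. LOH line 34 was the highest library for 5 of the 9 members (Ereg, Hbegf, Tgfa, Btc and Errfi1), where it was the highest for 22.3% of all genes. Its TMM factor was the lowest, at 0.815 against 0.95 to 1.18 elsewhere. LOH line 6 was the lowest library for Egfr, Hbegf and Tgfa.

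The genes most like Egfr over the 6 libraries, by Pearson correlation of log2 CPM among 10075 genes averaging 5 CPM or more, were Tmx4 (r = 0.988), Cbx3 (r = 0.978) and Esf1 (r = 0.978). Cbx3, for a heterochromatin protein, had 130, 77.2 and 86.8 CPM in the heterozygous libraries and 61.5, 112 and 122 CPM after LOH, the same order of highest and lowest library as Egfr. The genes most like Areg were Kpna6 (r = 0.992), 1110012L19Rik (r = 0.989) and Nsmce1 (r = 0.989). Kpna6, for an importin, had 90.6, 105 and 98.5 and then 77.8, 57.7 and 92.3 CPM, a much narrower range than Areg. These are the highest of many correlations over the same 6 libraries and are given as a description.

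Beyond the members, 80 other genes of the pathway were listed, 75 were tested and 5 passed, all of them higher in LOH in this fit. These were Shc1, Spry4, Lrig2, Egr1 and Junb, or 6.67% of those tested, where 5.21% of all genes passed. The directions depended on the scale and the tool, since limma called 3 higher and 4 lower on log2(TPM + 1) and 1 higher and 2 lower on log2(TPM + 0.1), upper quartile scaling 5 and 1, and DESeq2 13 and 2. Without LOH line 6 edgeR called 16 higher and 3 lower, and without LOH line 34 it called 3 and 1. The median log2 fold change of the 75 was 0.39, against 0.06 for all genes. It was 0.24 without LOH line 34, 0.15 without both libraries of that line and 0.23 without both of line 23. On the TPM scales it was -0.07 and -0.08 over 70 pathway genes, where those of the 11918 genes on these scales were -0.35 and -0.42. With the line as a block none of these 5 passed, and 1 other gene did, Lrig3. Without any 1 of the heterozygous libraries edgeR called none of them, with 13 to 19 pathway genes at an unadjusted p under 0.05. Without LOH line 23 only Spry4 of the 5 still passed, and without LOH line 34 Lrig2, Junb and Egr1 did not (edgeR adjusted p = 0.0699, 0.0531 and 0.0707). Over 19 alternatives each, the adjusted p-values of the 5 ran from 7.51e-05 to 0.298.

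Of the 6 other genes of the receptor and ligand family, 3 were tested and none passed, with a median log2 fold change of -0.92. Nrg1, for the neuregulin that binds ERBB3, had 6, 3.1 and 3.72 CPM in the heterozygous and 0.175, 0.843 and 0.882 CPM in the LOH libraries, with a log2 fold change of -2.74 (SE 0.61) and an edgeR adjusted p of 0.0522. Every LOH library was below every heterozygous one, and LOH line 6 held only 3 counts. Nrg4 and Egf had log2 fold changes of -0.92 and 0.71 (edgeR adjusted p = 0.317 and 0.442). Erbb4 and Nrg3 had 0 counts in every library, which allows up to 0.1 to 0.223 CPM, and Nrg2 did not pass the filter.

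Of 9 genes for the release of ligands, 7 were tested and none passed, and their median log2 fold change was 0.61. The smallest unadjusted p-values belonged to Rhbdf1, which helps ADAM17 reach the cell surface, with a log2 fold change of 0.61 (edgeR adjusted p = 0.138), and to the protease gene Adam15 with 0.88 (edgeR adjusted p = 0.148). Adam10 and Adam8 had log2 fold changes of 0.81 and 1.33 (edgeR adjusted p = 0.364 and 0.368). Adam17, the main protease that frees Areg, Tgfa and Hbegf, is named although its p was not among these. It had 79.9, 75.3 and 83.7 CPM in the heterozygous and 67.8, 82.3 and 78.8 CPM in the LOH libraries.

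All 20 genes of the adaptors and the RAS and ERK cascade were tested, and 1 passed, with a median log2 fold change of 0.14. Shc1, for an adaptor that binds the activated receptors and recruits GRB2, rose from 70.9, 89.6 and 88.1 CPM to 147, 203 and 231 CPM. Its log2 fold change was 1.23 (SE 0.23) with an edgeR adjusted p of 0.0325, and 0.0721 with the line as a block. Sos2, Ksr1, Hras and Map2k2 came next without passing, with log2 fold changes of 0.89, 0.7, -0.93 and -0.36 and edgeR adjusted p-values of 0.132, 0.138, 0.137 and 0.232. Of 12 genes of PI3K and AKT none passed, and the median was 0.16. Pik3r2, a regulatory subunit, had 49.6, 54.7 and 49.5 CPM and then 82.8, 86.8 and 76.9 CPM, with a log2 fold change of 0.68 (SE 0.16) and an edgeR adjusted p of 0.06. Rictor, Pik3cb and Akt1 had log2 fold changes of 1.55, -0.43 and -0.53 (edgeR adjusted p = 0.114, 0.208 and 0.228).

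Of 19 genes listed as feedback inhibitors, 2 passed, 6 had an unadjusted p under 0.05 (25.3% of all genes had one) and the median log2 fold change was 0.4. Spry4, for a Sprouty protein that dampens RAS signalling, rose from 9.47, 10.3 and 9.75 CPM to 25, 26.4 and 55 CPM (log2 1.85, SE 0.34, edgeR adjusted p = 0.0329, and 0.0777 with the block). Lrig2, of a family of membrane proteins that bind these receptors, rose from 15.1, 16.5 and 15.6 CPM to 25.1, 30.4 and 34.5 CPM (log2 0.93, edgeR adjusted p = 0.0443, and 0.133 with the block). Both had close values in the heterozygous libraries and no overlap. Lrig3 had 1.23, 3.26 and 1.07 CPM and then 17.8, 66.9 and 5.59 CPM. Its log2 fold change was 4.07 without the block (edgeR adjusted p = 0.06) and 3.55 with it (edgeR adjusted p = 0.0423). Whether Lrig2 and Lrig3 act as feedback inhibitors in these organoids was not tested. Dusp4, a phosphatase of ERK, had a log2 fold change of 0.87 (edgeR adjusted p = 0.0508), and Spred3 and Dusp5 had 1.49 and 0.68 (edgeR adjusted p = 0.0773 and 0.135).

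Of 14 transcripts that respond to ERK, 2 passed, 8 had an unadjusted p under 0.05, where 25.3% of all genes had one, and the median was 0.48. Egr1 rose from 15.2, 13.3 and 10.7 CPM to 24.4, 66.1 and 66.7 CPM (log2 2, SE 0.4, edgeR adjusted p = 0.0399, and 0.118 with the block). Junb, for a subunit of AP-1, rose from 59.5, 70.9 and 69.2 CPM to 116, 120 and 183 CPM (log2 1.07, edgeR adjusted p = 0.0474, and 0.111 with the block). LOH line 6 was the lowest of the LOH libraries for both. Ccnd1, for cyclin D1, had lower values after LOH, with 896, 900 and 954 CPM and then 377, 273 and 625 CPM (log2 -1.11, edgeR adjusted p = 0.0818). Fos, Ier3 and Etv1 had log2 fold changes of 1.4, 1.84 and 2.36 (edgeR adjusted p = 0.0848, 0.106 and 0.111).

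**Figure D5:**
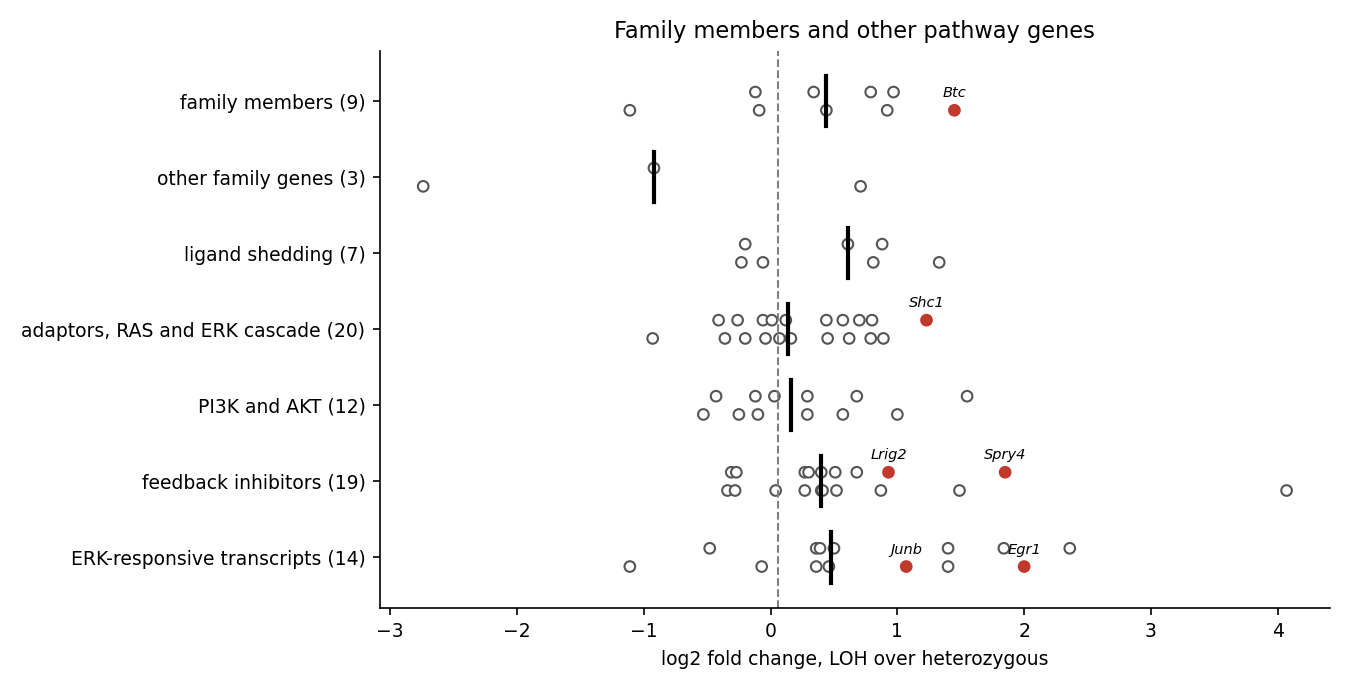
Log2 fold change of LOH over heterozygous for the tested members and for the tested genes of each pathway list, with the number tested in brackets. Filled points passed an adjusted p of 0.05, black bars are list medians, and the dashed line is the median of all genes at 0.06. Only 6 points are filled (Btc and 5 pathway genes), all to the right of the dashed line.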

How the data were processed

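RNA-seq was made from 6 organoid cultures with a strand-specific kit for total RNA, per the labels' protocols. Per the submitters' processing notes, the tools included FastQC 0.11.5, STAR 2.5.2b, RSEM 1.3.0 and DESeq2 1.44.0, with GRCm38.p5. The deposited tables name mouse GENCODE release 16 as annotation. Expected counts, as deposited, estimate how many reads came from each gene or transcript and can be fractions of a read. The deposited TPM values are the authors' abundances, corrected for length. The deposited percent of each gene held by each transcript is also the authors' estimate. The deposited normalized tables hold a signal, the truncated expected count divided by a size factor in 100% of values, and gave gene names and the set of protein-coding genes. Symbols came from these tables or the reference names. Coordinates are from GENCODE release 21 on GRCm38, and promoter windows and start sites from RefSeq on GRCm38.p6.

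Titles gave the group of each library and its line number. Some items of the genotype and of the gene lists are not reported here. Expected counts were rounded, filtered with filterByExpr (14537 genes), scaled by TMM and tested with edgeR 4.0.16 in R 4.3.3. CPM values are scaled by TMM. The members, lists and motifs were chosen with earlier results of these data known, and the transcript fit and truncated counts were added after seeing the data. All 10 members are named, with the pathway genes that passed and up to 4 others per list with the smallest unadjusted p, and the 3 genes most like Egfr and like Areg. The alternatives were other scalings and filters, the protein-coding table, the block, each library and line left out, DESeq2 1.42.0, and limma 3.58.1 on log2(TPM + 1) and log2(TPM + 0.1), for genes that reach 1 TPM in at least 3 libraries.

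The titles give each pair of same-numbered libraries as 1 organoid line, so the samples are paired by number. Deviations from the group means, across genes, which are not independent replicates, correlated at -0.3 in line 6, 0.01 in line 23 and 0.29 in line 34. No label says whether the libraries of a group came from separate mice, so p-values measure the spread between these cultures. Reads carry no molecular identifiers and are not independent molecules, so limits from 3 counts cover counting error only. Data were simulated for this comparison with 200 changed genes and no line effect, and 14054 genes were tested. There the edgeR test called 0 of 67 genes changed 2-fold, 37 of 67 changed 4-fold and 58 of 66 changed 16-fold, with 6 false calls. With the block it called 0, 28 and 54, with 3 false calls.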

Additional observations from a re-analysis of the deposited data

Results flagged for a closer look

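For 4 members the LOH library was above the heterozygous one in some lines and below it in others, and whether the lines differ was not tested, since each line has 1 library per genotype. Ereg had log2 ratios of -0.7 in line 6, -1.32 in line 23 and 1.31 in line 34, which are up to 2.63 apart. Egfr had ratios 1.87 apart, from -1.31 in line 6 to 0.56 in line 34. For Tgfa the ratios were -1.18, -0.19 and 0.65, or 1.83 apart, and for Hbegf -0.49, 0.32 and 1.12, or 1.61 apart. In each of these genes line 34 had the highest ratio, and in all but Ereg line 6 had the lowest.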

How the results depend on the processing

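The count of members that passed was 1, and it was 1 again with truncated counts, with protein-coding genes only, with RLE or upper quartile scaling, and with no filter or a minimum of 10 counts per library. DESeq2 called 3 members, 15 pathway genes and 2262 of all genes, against 1, 5 and 757 with edgeR. With the line as a replicate block edgeR called 0 members (3 with an unadjusted p under 0.05), 1 pathway gene and 213 genes. With limma on log2(TPM + 1) 0 members (2 unadjusted), 7 pathway genes and 1790 genes passed, 282 higher and 1508 lower, and on log2(TPM + 0.1) 0 members (2 unadjusted), 3 pathway genes and 1214 genes, 249 higher and 965 lower. With 1 library left out edgeR called 0 to 2 members, 0 to 19 pathway genes and 0 to 2449 of all genes, the highest of each without LOH line 6 (2 members also without LOH line 34). The 0 came without any of the heterozygous libraries, where 3 members had an unadjusted p under 0.05. Without LOH line 23 edgeR called 1 pathway gene and 451 genes. Without both libraries of line 23 or of line 34 it called 0 members (3 unadjusted), 0 pathway genes (16 and 10 unadjusted) and 0 genes (2253 and 2097 unadjusted). Without line 6 it called 0 members (4 unadjusted), 10 pathway genes and 1422 genes.

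The log2 fold change turned sign for 4 members, none of which passed. For Egfr it ran from -0.36 to 0.16 with 1 library left out (0.16 without heterozygous and 0.1 without LOH line 6) and was 0.42 without line 6. For Ereg it ran from -1.05 (without LOH line 34) to 0.8 and was -0.26 with the block, -0.94 without line 34, and -0.48 and -0.61 on the TPM scales. For Hbegf it was -0.03 without line 34 and -0.07 and -0.08 on the TPM scales, and for Tgfa it ran from -0.57 to 0.18 (without LOH line 6) and was 0.25 without line 6. The cause was not tested. Btc, Erbb2, Erbb3, Areg and Errfi1 kept their sign in all 19 alternatives, with adjusted p-values of 0.00169 to 0.195 for Btc. No change of 2-fold was called in data simulated with 200 changed genes and no line effect. That setting differs from the real data, where 757 genes passed and Lrig2 passed at 1.9-fold (edgeR adjusted p = 0.0443).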
